A study of Oryza sativa Indica Group with 27 samples.

Results

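The genes described here are the expansins and the cellulose synthase family of rice. They were taken from the gene names of the RefSeq annotation of the Japonica assembly ASM3414082v1: a symbol or synonym made of EXPA, EXPB, EXLA or EXLB and a number for the expansins, and of CESA or CSLA to CSLH and a number for the synthases. The annotation names 84 such genes, 49 expansins and 35 synthases, and the array had a probe set of its own for 58 of them, 29 expansins and 29 synthases, out of 17905 genes measured in all. The measured expansins are 14 of 29 alpha-expansins (EXPA), 11 of 15 beta-expansins (EXPB) and all 4 expansin-like A genes (EXLA), while the 1 expansin-like B gene was not measured. The synthases are all 9 cellulose synthases (CESA) and 20 cellulose synthase-like genes: 4 of 6 CSLA, 5 of 5 CSLC, 4 of 4 CSLD, 2 of 3 CSLE, 4 of 7 CSLF and the 1 CSLH gene. EXPA17 and EXPB5, which act in root hairs of rice, had no probe set of their own and were not analysed here. Where a gene had several probe sets, the one with the highest mean over all arrays was used, and probe sets matched to several genes were left out.

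The samples are whole seedlings of 3 cultivars of indica rice, grown in liquid medium to an age of 7 days. Nonabokra and Pokkali are known as salt-tolerant and IR29 as salt-susceptible. Seedlings of each cultivar stayed in growth medium for 6 h (unstressed) or stood in 200 mM NaCl for 3 h or 6 h, all at the same temperature, and each of the 9 groups has 3 arrays labelled as biological replicates. No unstressed sample was taken at 3 h, so both salt times of a cultivar are compared with the same 3 unstressed arrays and the comparisons at 3 h and 6 h are not independent of each other. One free-text label of the seedlings sampled at 3 h names drought where every other label names salt, and they are treated as salt here. Because whole seedlings were extracted, fewer cells of a type and less RNA per cell cannot be told apart.

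Plant cells grow by letting their walls yield. Expansins are secreted proteins that loosen the wall without cutting its polymers. Alpha-expansins act on contacts between cellulose and other wall polymers, beta-expansins, a family that is large in grasses, act on the matrix of grass walls, and the expansin-like proteins share their fold but have no settled loosening activity. CESA proteins assemble into complexes of the plasma membrane that spin cellulose: in rice CESA1, CESA3 and CESA8 serve the primary walls of growing cells, and CESA4, CESA7 and CESA9 the secondary walls of stems, vessels and fibres, where mutants are brittle. The CSL families make the backbones of other wall glycans, mannans in CSLA, xyloglucan in CSLC and the mixed-linkage glucan typical of grasses in CSLF and CSLH. CSLD proteins act in tip growth and cell expansion, with CSLD1 required for root hairs of rice, and the product of CSLE is not settled.

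Values are the authors' linear array intensities, and intensities of different probe sets are not comparable with each other. Changes are differences of group means of log2(intensity + 16) ± the standard error from limma's model over all 27 arrays, so that a value of 1 stands for a 2-fold change of intensity + 16 and changes of dim genes are understated. A gene passed, and is said to have risen or fallen, at an adjusted p under 0.05 (Benjamini-Hochberg over 57194 probe sets). The 3 arrays per group limit the precision. Array medians lay between 7.09 and 7.77, between 28.8% and 29.7% of probe sets lay above 100, and arrays of a group correlated at 0.9957 to 0.9992. Added poly-A control RNA read lower in salt, with a mean log2 intensity of 9.02, 8.84 and 8.67 in unstressed Nonabokra, Pokkali and IR29, 8.42, 8.33 and 8.23 at 3 h and 7.09, 7.44 and 7.29 at 6 h. Signal of 18S ribosomal RNA also moved in IR29, with a mean log2 intensity of 11.2 before salt (range 10.9 to 11.9), 5.24 at 3 h and 6.48 at 6 h, beside 7.81 and 9.53 in unstressed Nonabokra and Pokkali and 7.48 to 8.58 in their salt groups. Of the 57194 probe sets, which are mostly dim, IR29 had 8990 higher against 27590 lower after 3 h, then 6858 against 23667 after 6 h, whereas Nonabokra had 7458 against 8545 after 3 h. A like excess appeared without salt. Against unstressed IR29, unstressed Nonabokra had 7659 higher and 24375 lower, and unstressed Pokkali 9351 and 26032. The unstressed IR29 arrays had medians of 7.77, 7.53 and 7.46, and those of the other unstressed arrays lay between 7.23 and 7.36. All comparisons with unstressed IR29 and all response differences from IR29 use these 3 arrays. Summed intensities of 4 root genes lay between 7539 and 8405 in unstressed Nonabokra, between 2035 and 2168 at 3 h and between 4871 and 5433 at 6 h. In Pokkali the ranges were 4882 to 5069, 1203 to 1416 and 2636 to 2840, and in IR29 they were 8940.3 to 9883, 558 to 622 and 1781 to 2264. NIP2-1 and Lsi2, the silicon transporters of rice roots, make up most of these sums, and of the other root genes CASP1 and IRT1 did not follow them in every cultivar, with 3 h changes of CASP1 of 0.70, 0.97 and -0.82 in the order Nonabokra, Pokkali, IR29. Sums of 4 leaf genes stayed between 64876 and 81237, with RBCS1 near 8.63, and those of 5 seed storage genes between 1179 and 1802, with GLUA-1 near 4.28. Whether the poly-A controls, the 18S signal, the level of the unstressed IR29 arrays or the share of root RNA had a part in the results below was not tested.

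Of the 58 members, 15 had a mean intensity under 100 in every group, and 43 reached 139.6 or more in at least 1 group. The dim ones are the expansins EXPA4, EXPA16, EXPA26, EXPA29, EXPA31, EXPA32, EXPB8, EXPB9 and EXPB10 and the synthases CESA2, CSLD1, CSLD4, CSLD5, CSLF2 and CSLF7. EXPB9 and EXPB10, beta-expansins known from rice pollen, read near 5.75 and 4.60 in unstressed Nonabokra. CSLD1 read near 4.38, so that of the named root hair genes none gave a clear signal. The dim members passed 21 times in the 6 salt comparisons, 15 of them in IR29, with 11 changes under 0.1 and none above 0.45 in size. They stay in all counts below. CESA2, CSLD1 and EXPB9 passed in no salt comparison. Of the 58 probe sets, 6 carry the suffix _a, 3 the suffix _x (CSLC7, CSLD4 and EXLA2) and 1 the suffix _s (EXPB4). These suffixes mark probes shared among transcripts of a gene (_a), within a family (_s) or with unrelated sequences (_x), so that related genes can add to their signal.

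Salt changed the expansins in both directions, raised the expansin-like A genes and lowered cellulose synthases in the 2 tolerant cultivars. In IR29 fewer cellulose synthases fell, and at 3 h only. In salt against control, the share of the 58 members that passed was near that of all genes in Nonabokra and IR29 and higher in Pokkali. It was also higher in most of the comparisons between salt times and between cultivars given below. No set test was run, so the counts alone say little and the account turns on which members moved. At 3 h in Nonabokra 34 of 58 members passed (58.6%), against 57.6% of all genes, with 15 higher and 19 lower against 27.4% and 30.2%. In Pokkali 35 passed (60.3%, all genes 53.1%), 17 higher and 18 lower (all genes 24.9% and 28.2%). In IR29 39 passed (67.2%, all genes 64.1%), 17 higher and 22 lower (all genes 32.7% and 31.4%), a split that became 20 higher and 13 lower when arrays were centred on their medians. At 6 h 29 members passed in Nonabokra (all genes 47.1%), 17 higher and 12 lower (all genes 22.4% and 24.7%). Pokkali had 32 (55.2%, all genes 43.5%), 16 higher and 16 lower (all genes 21.2% and 22.3%). IR29 had 31 (53.4%, all genes 52.9%), 19 higher and 12 lower (all genes 26.0% and 27%), or 20 and 8 with median centring.

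Passing changes of 2-fold or more were fewer. They numbered 8 up and 2 down of 58 in Nonabokra at 3 h, where 14.4% of all genes changed that much in either direction, and 3 up and 1 down at 6 h (all genes 7.97%). Pokkali had 7 up and 6 down at 3 h (all genes 11.5%) and 4 up and 1 down at 6 h (all genes 6.84%). IR29 had 1 up and 1 down at 3 h (all genes 9.14%) and 1 up and 2 down at 6 h (all genes 5.45%).

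Taken apart, the 29 expansins had 9 higher and 7 lower in Nonabokra at 3 h, 12 and 9 in Pokkali and 9 and 14 in IR29. With arrays centred on their medians the 3 h split in IR29 turned to 12 higher and 8 lower, and in a fit to the compared groups alone it was 9 and 9. At 6 h they had 11 higher and 0 lower in Nonabokra, 9 and 7 in Pokkali and 11 and 8 in IR29, or 12 and 4 there with median centring. Their median change lay between -0.012 and 0.055 over the 6 comparisons, beside medians of all genes between -0.0058 and 0.00069. The 29 synthases had 6 higher and 12 lower in Nonabokra at 3 h, 5 and 9 in Pokkali and 8 and 8 in IR29 (8 and 5 with median centring). At 6 h the synthases had 6 and 12, 7 and 9 and 8 and 4 in the same order of cultivars, with medians between -0.11 and -0.008 over the 6 comparisons.

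**Figure D1:**
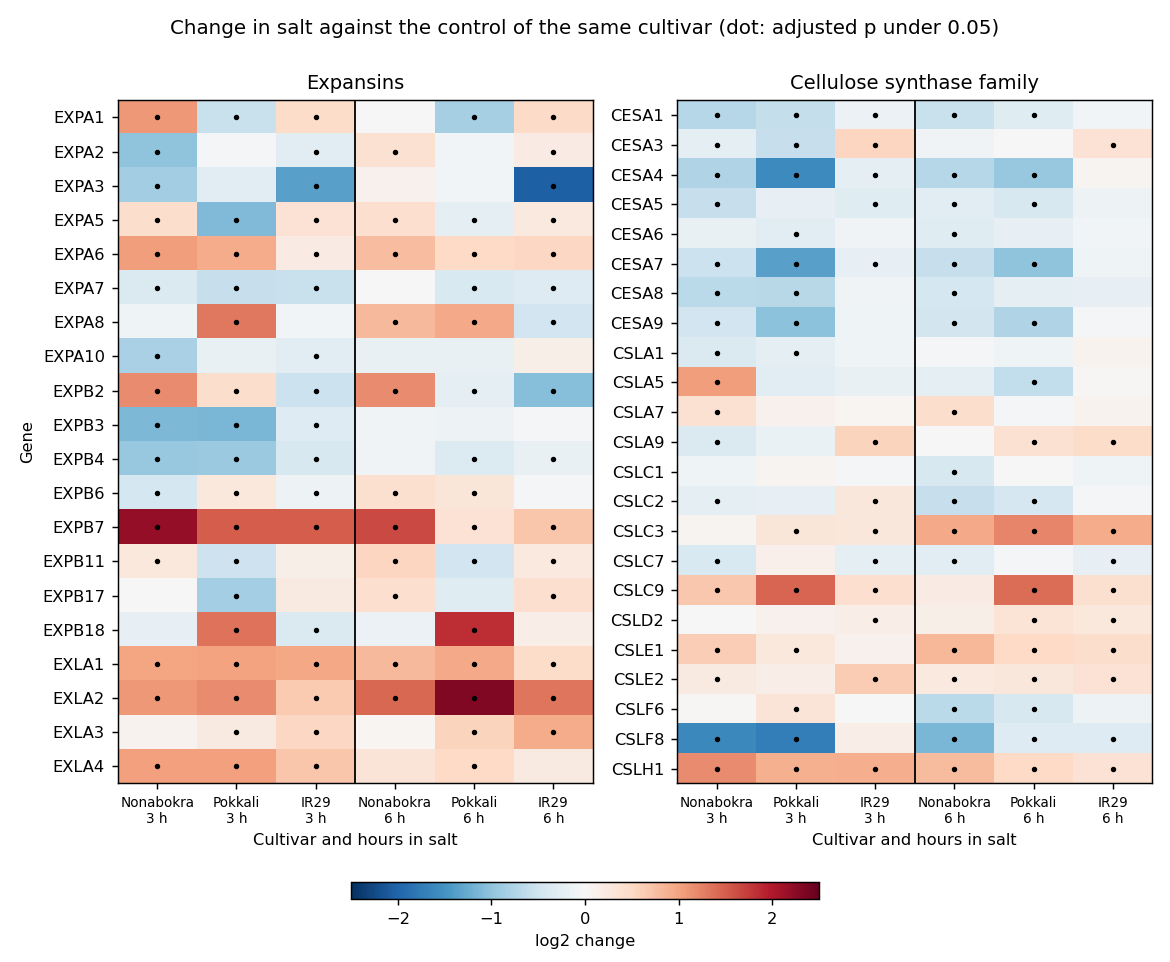
Change of log2(intensity + 16) in salt against the unstressed arrays of the same cultivar for the 43 members that reached an intensity of 100 in at least 1 group, with red for higher, blue for lower and a dot where the adjusted p was under 0.05. EXPB7, EXPA6, EXLA1, EXLA2 and CSLH1 are red and dotted in all 6 columns, and CESA4, CESA7 and CESA9 are blue and dotted in the 4 columns of Nonabokra and Pokkali.

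The cultivars have no arrays in common, and calls are counted across them here. These calls are not fully independent, since all cultivars share the same estimate of each gene's spread. Same-numbered arrays of unstressed Nonabokra and Pokkali, and of Nonabokra and IR29 at 6 h, also had correlated residuals. At 3 h 7 members rose in all 3 cultivars: the expansins EXPA6, EXPB7, EXLA1, EXLA2 and EXLA4 and the synthase-like genes CSLC9 and CSLH1. That is 7 of 58, beside 15.8% of all genes. Another 6 fell in all 3, beside 15.5% of all genes, namely EXPA7, EXPB3, EXPB4, CESA1, CESA4 and CESA7. A further 10 members rose in 1 cultivar and fell in another: EXPA1, EXPA5, EXPA29, EXPB2, EXPB6, EXPB11, EXPB18, CESA3, CSLA9 and CSLC2, beside 6.88% of all genes. At 6 h 8 members rose in all 3 cultivars (EXPA6, EXPB7, EXLA1, EXLA2, CSLC3, CSLE1, CSLE2 and CSLH1) and CSLF8 alone fell in all 3, while EXPA1, EXPA5, EXPA8, EXPB2 and EXPB11 went both ways. Of all genes 10.1% rose in all 3, 8.46% fell in all 3 and 7.06% went both ways. Higher in all 6 comparisons were 5 members, EXPA6, EXPB7, EXLA1, EXLA2 and CSLH1, and none of the 58 was lower in all 6, beside 8.08% and 6.23% of all genes.

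EXPB7, a beta-expansin, had the largest rise of any member at 3 h in each cultivar. In Nonabokra, EXPB7 read 202, 232 and 234 on the unstressed arrays, 1072, 1069 and 1095 after 3 h of salt and 762, 668 and 761 after 6 h. In Pokkali, EXPB7 read 533, 553 and 513 on the unstressed arrays, 1593, 1504 and 1538 after 3 h of salt and 674, 728 and 659.8 after 6 h. In IR29, EXPB7 read 351, 333 and 346 on the unstressed arrays, 1014, 1004 and 1030.0 after 3 h of salt and 599.6, 564 and 537 after 6 h. All salt arrays lay above all unstressed arrays of their cultivar, and in each cultivar the 3 h arrays were the highest. The rise at 3 h was 2.20 ± 0.055 (adjusted p = 3.5e-17) in Nonabokra, 1.51 ± 0.055 (adjusted p = 1.9e-14) in Pokkali and 1.52 ± 0.055 (adjusted p = 2.2e-14) in IR29, and at 6 h it was 1.64 ± 0.055 (adjusted p = 6.9e-15), 0.36 ± 0.055 (adjusted p = 4e-05) and 0.70 ± 0.055 (adjusted p = 5.7e-09). EXPB8, which lies 1 gene away from EXPB7 in the genome, was dim and passed in Pokkali at 3 h only, with 0.45 ± 0.071 (adjusted p = 4.2e-05).

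The 4 expansin-like A genes moved one way. In the 6 salt comparisons, each time they passed they were higher: 3, 4 and 4 of 4 at 3 h and 2, 4 and 3 of 4 at 6 h in Nonabokra, Pokkali and IR29. Of all genes 27.4%, 24.9% and 32.7% were higher at 3 h and 22.4%, 21.2% and 26.0% after 6 h. EXLA2 rose most of the 4 in each comparison except IR29 at 3 h, where EXLA1 (0.96) and EXLA4 (0.70) rose more. In Nonabokra, EXLA2 read 268, 321 and 251 on the unstressed arrays, 428, 704 and 736 after 3 h of salt and 684, 823 and 827 after 6 h. In Pokkali, EXLA2 read 167, 159 and 177 on the unstressed arrays, 448, 327 and 448 after 3 h of salt and 854, 932 and 894 after 6 h. In IR29, EXLA2 read 129, 134 and 129 on the unstressed arrays, 173, 254 and 223 after 3 h of salt and 276, 439 and 366 after 6 h. No salt array of EXLA2 overlapped the unstressed arrays of its cultivar, and Pokkali and IR29 read higher at 6 h than at 3 h. Its changes were 1.08 at 3 h and 1.43 ± 0.19 (adjusted p = 4.5e-06) at 6 h in Nonabokra, 1.19 and 2.31 ± 0.19 (adjusted p = 6.3e-09) in Pokkali, and 0.65 and 1.33 ± 0.19 (adjusted p = 1.4e-05) in IR29. EXLA2 has the _x suffix, and its other probe set above an intensity of 50 also passed as higher in all 6 comparisons, with changes from 0.53 to 2.30.

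EXLA1 went from 1314 ± 95.7 (mean ± SD, n = 3) to 2637 ± 222 at 3 h in Nonabokra, from 1138 ± 52.7 to 2322 ± 244 in Pokkali and from 1974 ± 39.0 to 3859.9 ± 367 in IR29. These are rises of 0.995 ± 0.10 (adjusted p = 9.3e-08), 1.01 ± 0.10 (adjusted p = 8.8e-08) and 0.96 ± 0.10 (adjusted p = 2.3e-07), within 0.1 of each other. EXLA4 rose at 3 h in all 3 cultivars, by 1.03, 1.02 and 0.70 ± 0.14 (adjusted p = 0.00042), and at 6 h it passed in Pokkali only (0.50). EXLA3 had the opposite order of cultivars, with 0.083 and 0.055 in Nonabokra, neither passing, 0.22 and 0.56 in Pokkali and 0.52 and 0.93 ± 0.06 (adjusted p = 2.8e-10) in IR29, all 4 passing.

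**Figure D2:**
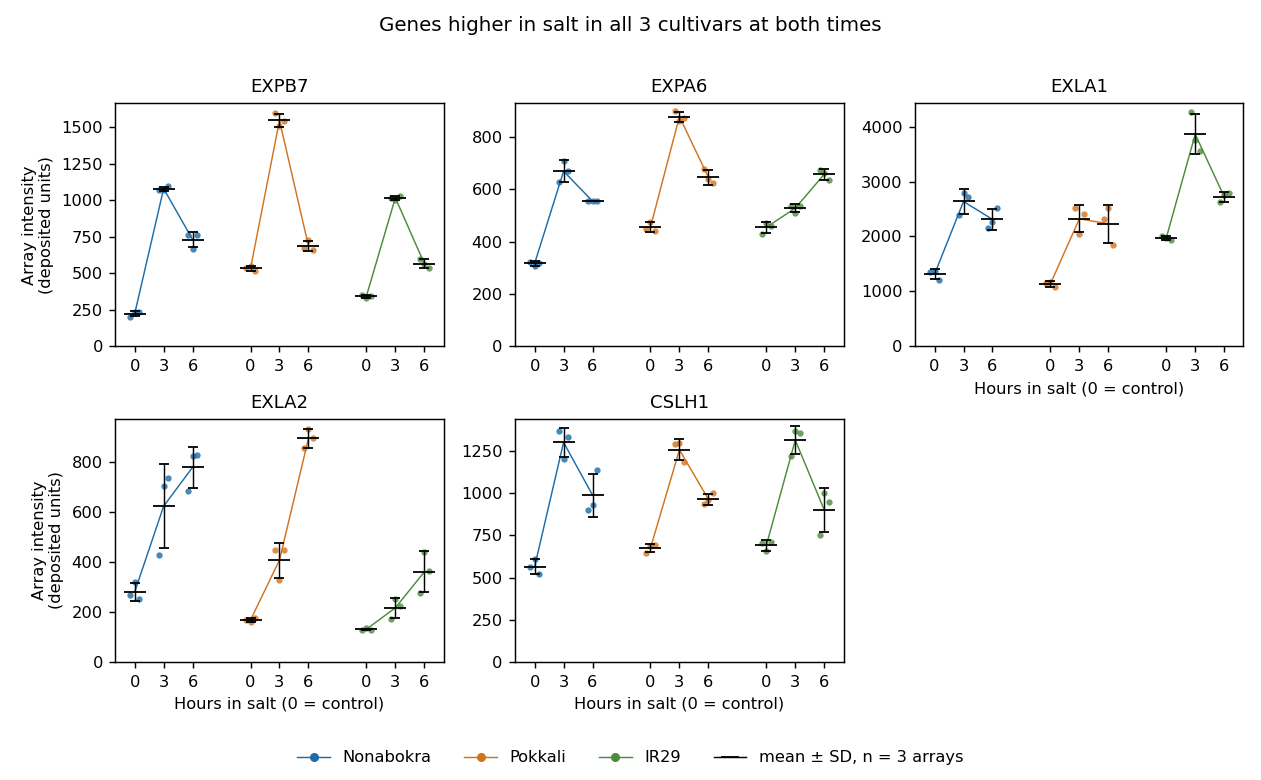
Array intensity (deposited units, axis from 0) of the 5 members that were higher in salt in all 3 cultivars at both times, against hours in salt, with 0 for the unstressed arrays kept in medium for 6 h. Points are arrays, black bars the mean ± SD of 3 arrays; EXPB7 peaks at 3 h in each cultivar, at means of 1079, 1545 and 1016, while EXLA2 in Pokkali climbs to 893 at 6 h.

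Of the 14 alpha-expansins, EXPA6 was the one that rose in all 6 comparisons, by 1.04 ± 0.042 (adjusted p = 6.4e-14) and 0.78 at 3 h and 6 h in Nonabokra, 0.92 and 0.49 in Pokkali and 0.21 (adjusted p = 0.00044) and 0.52 in IR29. Its unstressed means were 317 ± 7.86, 456 ± 18.4 and 455 ± 21.6. EXPA7, whose overexpression in rice has been linked to salt tolerance, fell at 3 h in each cultivar, by -0.37 in Nonabokra, -0.58 in Pokkali and -0.56 ± 0.073 (adjusted p = 3.5e-06) in IR29. At 6 h EXPA7 was still lower in Pokkali (-0.38 ± 0.073 (adjusted p = 0.00041)) and IR29 (-0.33 (adjusted p = 0.0018)) and stood at -0.014 (adjusted p = 0.93) in Nonabokra. EXPA10, which takes part in root elongation under aluminium in rice, fell at 3 h in Nonabokra (-0.81 ± 0.081 (adjusted p = 7.2e-08)) and IR29 (-0.26 (adjusted p = 0.01)), with -0.19 (adjusted p = 0.098) in Pokkali, and passed nowhere at 6 h.

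EXPA2 dipped and came back in Nonabokra. In Nonabokra, EXPA2 read 622, 568 and 521 on the unstressed arrays, 256, 289.6 and 287 after 3 h of salt and 689, 812 and 736 after 6 h. Its 3 h arrays lay below all others of the cultivar, with a fall of -0.998 ± 0.086 (adjusted p = 8.2e-09), and the 6 h arrays were above the unstressed ones (0.38 (adjusted p = 0.0022)). In IR29 the same order was shallower, -0.27 at 3 h and 0.21 at 6 h, both passing, and in Pokkali EXPA2 stood at -0.021 (adjusted p = 0.996) and -0.069 (adjusted p = 0.55).

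EXPA3 fell furthest in IR29. In IR29, EXPA3 read 175, 189.7 and 201 on the unstressed arrays, 71.6, 59.9 and 58.6 after 3 h of salt and 41.8, 31.8 and 29.0 after 6 h. The 3 groups of IR29 arrays do not overlap, and the falls were -1.37 ± 0.11 (adjusted p = 5.7e-09) at 3 h and -2.03 ± 0.11 (adjusted p = 2.5e-11) at 6 h. In Nonabokra, EXPA3 read 79.3, 72.9 and 99.0 on the unstressed arrays, 39.999, 45.6 and 29.7 after 3 h of salt and 101, 92.8 and 80.1 after 6 h. The 3 h change of EXPA3 in Nonabokra was a fall (-0.88 (adjusted p = 2.1e-06)), and the 6 h change did not pass (0.11 (adjusted p = 0.71)). In Pokkali, EXPA3 read 499.7, 502 and 519.8 on the unstressed arrays, 424, 389.9 and 423 after 3 h of salt and 486, 468 and 490.0 after 6 h. Pokkali thus held the highest readings before and after salt, and neither its change at 3 h (-0.29 (adjusted p = 0.068)) nor that at 6 h (-0.073 (adjusted p = 0.64)) passed.

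EXPA1 rose in Nonabokra and IR29 and fell in Pokkali. In Nonabokra, EXPA1 read 158, 155 and 167 on the unstressed arrays, 369.8, 354 and 354 after 3 h of salt and 188, 143 and 155 after 6 h. In Pokkali, EXPA1 read 603, 583 and 549.7 on the unstressed arrays, 382, 402 and 377 after 3 h of salt and 321, 346 and 285 after 6 h. In IR29, EXPA1 read 209, 198 and 195 on the unstressed arrays, 288, 268 and 294 after 3 h of salt and 336, 282 and 248 after 6 h. Nonabokra showed a peak at 3 h (1.09 ± 0.09 (adjusted p = 4.3e-09), then 0.0071 (adjusted p = 0.97)), Pokkali fell at both times (-0.56 and -0.84 ± 0.09 (adjusted p = 3.9e-07)) from the highest unstressed level, and IR29 rose at both (0.46 and 0.48 (adjusted p = 0.00039)).

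EXPA5 went the other way in Pokkali from its course in Nonabokra and IR29. In Pokkali, EXPA5 read 817, 802 and 784 on the unstressed arrays, 395, 386 and 317 after 3 h of salt and 689, 663 and 666 after 6 h. In Pokkali all 3 h arrays lay below all 6 h arrays, and those below the unstressed arrays, with falls of -1.10 ± 0.08 (adjusted p = 8.2e-10) and -0.25 (adjusted p = 0.032). EXPA5 rose in Nonabokra by 0.43 and 0.41 and in IR29 by 0.37 and 0.24 (adjusted p = 0.019) at 3 h and 6 h. EXPA8, which promotes root growth when overexpressed in rice, rose in the tolerant cultivars and fell in IR29. In Pokkali, EXPA8 read 163, 156 and 157 on the unstressed arrays, 392, 431 and 440.0 after 3 h of salt and 349, 278 and 339 after 6 h. In Nonabokra, EXPA8 read 59.5, 53.7 and 61.7 on the unstressed arrays, 54.9, 55.1 and 49.0 after 3 h of salt and 95.3, 126 and 121 after 6 h. In IR29, EXPA8 read 96.1, 95.3 and 88.6 on the unstressed arrays, 80.6, 92.5 and 90.4 after 3 h of salt and 55.0, 72.9 and 61.3 after 6 h. The Pokkali arrays were all higher in salt, by 1.32 ± 0.094 (adjusted p = 5.7e-10) at 3 h and 0.95 at 6 h. Nonabokra rose at 6 h only (0.80, with -0.11 (adjusted p = 0.6) at 3 h), and IR29 fell at 6 h (-0.47 ± 0.094 (adjusted p = 0.00066), with -0.075 (adjusted p = 0.51) at 3 h).

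Of the beta-expansins, EXPB6, EXPB2, EXPB3 and EXPB4 follow one another in the reference genome with no annotated gene between consecutive members, yet they did not move together. EXPB3 and EXPB4 fell at 3 h in every cultivar and were back near the unstressed level at 6 h, except for smaller falls of EXPB4 in Pokkali and IR29. In Nonabokra, EXPB3 read 5514, 5109 and 5149 on the unstressed arrays, 2428, 2313 and 2448 after 3 h of salt and 4793, 5041 and 4971 after 6 h. In Pokkali, EXPB3 read 4513, 4444 and 4433 on the unstressed arrays, 1852, 2040.4 and 2117 after 3 h of salt and 4129, 4208 and 3890.1 after 6 h. In IR29, EXPB3 read 7011, 7025 and 7317 on the unstressed arrays, 5587, 5590.2 and 5835 after 3 h of salt and 6349.5, 7018 and 7525 after 6 h. In each cultivar the 3 h arrays of EXPB3 lay below all unstressed arrays, and the 6 h arrays lay above all 3 h arrays. The falls at 3 h were -1.13 ± 0.052 (adjusted p = 5.8e-13), -1.15 ± 0.052 (adjusted p = 6e-13) and -0.33 ± 0.052 (adjusted p = 4.5e-05) in Nonabokra, Pokkali and IR29, and the values at 6 h were -0.09 (adjusted p = 0.31), -0.13 (adjusted p = 0.08) and -0.035 (adjusted p = 0.61). EXPB4 fell by -0.95 ± 0.069 (adjusted p = 5.7e-10), -0.93 ± 0.069 (adjusted p = 1.1e-09) and -0.41 (adjusted p = 8.5e-05) at 3 h and stood at -0.089 (adjusted p = 0.55), -0.34 (adjusted p = 0.00084) and -0.19 (adjusted p = 0.029) at 6 h. The EXPB4 probe set carries the suffix for probes shared within a family, so part of its signal can come from a relative such as EXPB3.

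EXPB2, which shapes the root system of rice, differed in direction between cultivars. In Nonabokra, EXPB2 read 206, 203 and 198 on the unstressed arrays, 447, 495 and 507 after 3 h of salt and 475, 489.9 and 484 after 6 h. In Pokkali, EXPB2 read 781, 776 and 793 on the unstressed arrays, 1033, 1041 and 1111 after 3 h of salt and 632, 675 and 661 after 6 h. In IR29, EXPB2 read 952, 944 and 976 on the unstressed arrays, 647, 665 and 662 after 3 h of salt and 430.2, 479 and 442 after 6 h. Nonabokra started lowest and rose at both times, by 1.19 ± 0.04 (adjusted p = 4.5e-15) and 1.19 ± 0.04 (adjusted p = 9.4e-15). IR29 started highest and fell, by -0.53 ± 0.04 (adjusted p = 2.1e-09) and -1.06 ± 0.04 (adjusted p = 9.7e-14), with no overlap between its 3 groups. Pokkali rose at 3 h (0.43 (adjusted p = 3.8e-08)) and was below the unstressed level at 6 h (-0.25 (adjusted p = 7.1e-05)). At 6 h the means of the cultivars were 483 ± 7.58, 656 ± 22.0 and 450.4 ± 25.6, nearer to each other than before salt (203 ± 4.04, 783 ± 8.90 and 957 ± 16.8). EXPB6 fell in Nonabokra at 3 h (-0.44 (adjusted p = 5.3e-07)) and rose there at 6 h (0.40 (adjusted p = 2.6e-06)), rose in Pokkali at both times (0.27 and 0.31) and had -0.13 (adjusted p = 0.031) and -0.039 (adjusted p = 0.55) in IR29.

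**Figure D3:**
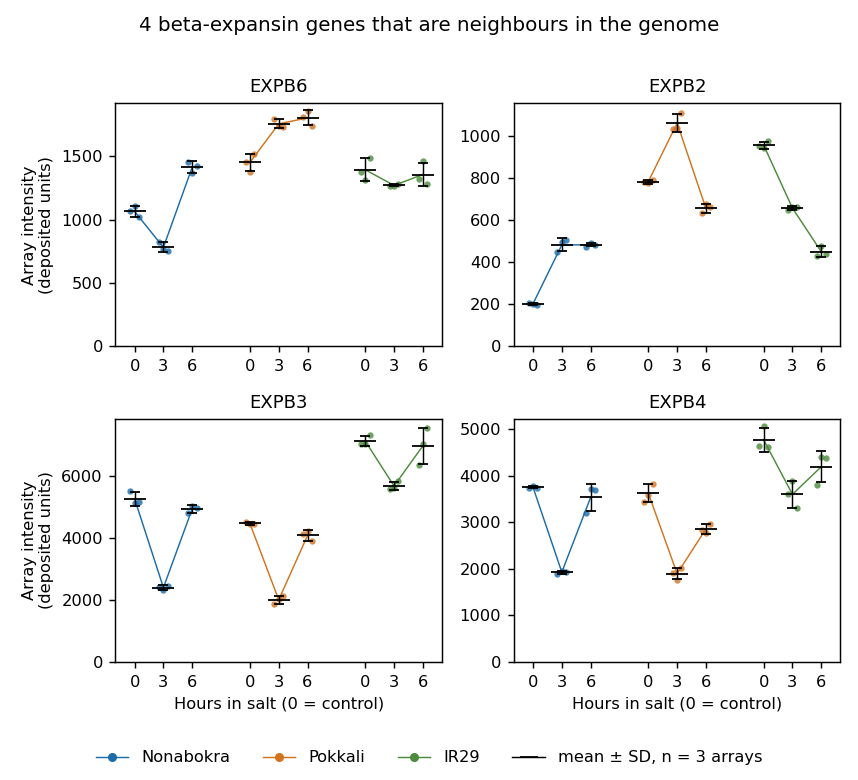
Array intensity (deposited units, axes from 0) of EXPB6, EXPB2, EXPB3 and EXPB4 against hours in salt, with 0 for unstressed arrays. Points are arrays and black bars the mean ± SD of 3 arrays; EXPB3 and EXPB4 dip at 3 h, while EXPB2 rises in Nonabokra from 203 to 483 and falls in IR29 from 957 to 450.4.

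EXPB18 rose in Pokkali and in no other cultivar. In Pokkali, EXPB18 read 30.2, 33.9 and 30.6 on the unstressed arrays, 107, 111 and 99.8 after 3 h of salt and 150.1, 163 and 154 after 6 h. In Nonabokra, EXPB18 read 131, 94.9 and 107 on the unstressed arrays, 87.0, 102 and 93.2 after 3 h of salt and 88.0, 108 and 101 after 6 h. In IR29, EXPB18 read 146, 132 and 129.8 on the unstressed arrays, 99.7, 108 and 97.8 after 3 h of salt and 133, 181 and 151 after 6 h. The Pokkali arrays rose from a level below all arrays of the other cultivars to their range, by 1.36 ± 0.10 (adjusted p = 6.2e-10) at 3 h and 1.85 ± 0.10 (adjusted p = 1e-11) at 6 h. EXPB18 fell in IR29 at 3 h (-0.37 (adjusted p = 0.0035)) and otherwise stood between -0.20 and 0.16 without passing. EXPB11 fell in Pokkali (-0.51 and -0.49 ± 0.066 (adjusted p = 9.8e-06)) and rose in Nonabokra (0.27 and 0.53), with 0.15 (adjusted p = 0.061) and 0.24 (adjusted p = 0.0076) in IR29. EXPB17 likewise fell in Pokkali at 3 h (-0.85 (adjusted p = 4.2e-06)) and rose at 6 h in Nonabokra (0.43) and IR29 (0.42).

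The 9 cellulose synthases moved down in the tolerant cultivars. In Nonabokra 7 of 9 fell and none rose at 3 h, and 7 of 9 fell and none rose at 6 h, with median changes of -0.54 and -0.45, while 30.2% and 24.7% of all genes were lower. In a fit to the compared groups alone the 6 h count in Nonabokra was 3 of 9 (CESA1, CESA4 and CESA7). In Pokkali 7 fell at 3 h and 5 at 6 h, again with no rise, and medians of -0.60 and -0.31 (all genes 28.2% and 22.3% lower). In IR29 4 fell and 1 rose at 3 h, and at 6 h 1 rose and none fell, with medians of -0.11 and -0.071 (all genes 31.4% and 27% lower). The 4 falls in IR29 became 2 with median centring, with the compared groups alone or without 3 h array 1 or 3, and 1 without the second unstressed array. The rise there, that of CESA3, was not called at 6 h with the compared groups alone (adjusted p = 0.067). The medians of all genes in these comparisons lay within 0.0058 of 0. CESA2 was the dim one, near 9.92, and passed nowhere.

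In Pokkali the secondary wall synthases CESA4, CESA7 and CESA9 fell furthest of the 9. In Nonabokra CESA4 fell most at both times, but at 3 h CESA1, CESA8 and CESA5 fell more than CESA7 and CESA9, and in IR29 at 3 h CESA5 fell most (-0.31). In Pokkali, CESA4 read 1726, 1765 and 1921 on the unstressed arrays, 603, 559.6 and 611 after 3 h of salt and 932, 951 and 889 after 6 h. In Nonabokra, CESA4 read 1203, 1235 and 1362 on the unstressed arrays, 720.3, 779 and 744 after 3 h of salt and 776, 778 and 735 after 6 h. In IR29, CESA4 read 895, 983 and 804 on the unstressed arrays, 772, 767 and 748 after 3 h of salt and 1052, 859 and 907 after 6 h. Unstressed Pokkali read highest, and in Nonabokra and Pokkali all salt arrays lay below all unstressed ones. CESA4 fell by -1.58 ± 0.071 (adjusted p = 5e-13) at 3 h and -0.95 ± 0.071 (adjusted p = 2.1e-09) at 6 h in Pokkali and by -0.75 ± 0.071 (adjusted p = 3.7e-08) and -0.72 ± 0.071 (adjusted p = 1.1e-07) in Nonabokra. In IR29 it fell at 3 h (-0.22 (adjusted p = 0.012)), a call lost without the second unstressed array (-0.15, adjusted p = 0.081), or with the compared groups alone (adjusted p = 0.082), and stood at 0.07 (adjusted p = 0.44) at 6 h. A further CESA4 probe set passed or failed in the same 6 comparisons in the same direction, with -1.72 in Pokkali at 3 h.

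In Pokkali the CESA7 mean was 1407 ± 157 before salt, 539.7 ± 17.5 after 3 h and 691 ± 50.5 after 6 h, falls of -1.35 ± 0.085 (adjusted p = 8.9e-11) and -1.01 ± 0.085 (adjusted p = 1.3e-08). In Nonabokra CESA7 went from 1062 ± 109 to 723 ± 29.5 and 708 ± 21.1, falls of -0.54 ± 0.085 (adjusted p = 3.1e-05) and -0.57. In IR29 it started at 845 ± 108 and changed by -0.20 (adjusted p = 0.044) at 3 h, which no longer passed without the second unstressed array (-0.10, adjusted p = 0.30) or without 3 h array 1 (-0.17, adjusted p = 0.14) or 3 h array 3 (-0.19, adjusted p = 0.096). CESA9 fell by -1.03 ± 0.089 (adjusted p = 1.2e-08) and -0.76 in Pokkali and by -0.48 ± 0.089 (adjusted p = 0.00023) and -0.46 in Nonabokra, and stood at -0.11 (adjusted p = 0.29) and -0.035 (adjusted p = 0.78) in IR29. At 6 h the means of CESA4 in Nonabokra, Pokkali and IR29 were 763 ± 24.3, 924 ± 32.1 and 939 ± 100.3, those of CESA7 708 ± 21.1, 691 ± 50.5 and 784 ± 20.1, and those of CESA9 89.1 ± 10.8, 99.4 ± 3.40 and 94.6 ± 0.83. All unstressed arrays of Nonabokra and Pokkali lay above those of IR29 for these 3 genes, while the 6 h means of the 3 cultivars lay closer together.

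Among the primary wall synthases, CESA1 and CESA8 fell in the tolerant cultivars and CESA3 was split. CESA1 went from 3539.9 ± 90.9 to 2168 ± 127 and 2415 ± 131 in Nonabokra (-0.70 ± 0.057 (adjusted p = 3e-09) and -0.55 ± 0.057 (adjusted p = 2e-07)) and from 3692 ± 153 to 2438 ± 91.0 and 2969.6 ± 33.2 in Pokkali (-0.60 ± 0.057 (adjusted p = 4.6e-08) and -0.31 ± 0.057 (adjusted p = 0.00028)). In IR29 the change of CESA1 at 3 h was -0.14 (adjusted p = 0.033), a call kept without the first unstressed array and lost without any other of the 6 arrays compared (changes from -0.15 to -0.12). CESA8 fell by -0.68 ± 0.09 (adjusted p = 3.5e-06) and -0.45 in Nonabokra and by -0.70 ± 0.09 (adjusted p = 3e-06) in Pokkali at 3 h, with -0.23 (adjusted p = 0.071) in Pokkali at 6 h and -0.082 (adjusted p = 0.45) and -0.21 (adjusted p = 0.052) in IR29.

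CESA3 was the only cellulose synthase to rise. In IR29, CESA3 read 6463, 6448 and 6488 on the unstressed arrays, 10136, 8678 and 9449 after 3 h of salt and 7362, 9118 and 8467 after 6 h. In Pokkali, CESA3 read 9785, 10334 and 9231 on the unstressed arrays, 6319, 6768 and 6683 after 3 h of salt and 9655, 9915 and 10088 after 6 h. In Nonabokra, CESA3 read 7977, 8474 and 7836 on the unstressed arrays, 7343, 6803 and 6517 after 3 h of salt and 6819, 7821 and 8297 after 6 h. In IR29 all 3 h arrays lay above the unstressed arrays, and in Pokkali all lay below. CESA3 rose in IR29 by 0.54 ± 0.075 (adjusted p = 9.8e-06) at 3 h and 0.36 ± 0.075 (adjusted p = 0.0012) at 6 h, and fell at 3 h by -0.57 ± 0.075 (adjusted p = 4.6e-06) in Pokkali and -0.23 (adjusted p = 0.023) in Nonabokra, where the call was lost without the second unstressed array or without 3 h array 2 or 3 (changes from -0.23 to -0.19). A dimmer probe set of CESA3, with a mean of 106, passed in none of the 6 comparisons, and with the mean of all its probe sets the calls in IR29 and in Nonabokra were lost. With that mean the change in Nonabokra at 3 h was larger (-0.61, adjusted p = 0.094) and those in IR29 were smaller (0.24, adjusted p = 0.42, and 0.23, adjusted p = 0.47). CESA5 fell in Nonabokra (-0.58 ± 0.079 (adjusted p = 4.9e-06) and -0.28 (adjusted p = 0.012)), in Pokkali at 6 h (-0.41 (adjusted p = 0.00052)) and in IR29 at 3 h (-0.31 (adjusted p = 0.003)). CESA6 fell in Nonabokra at 6 h (-0.30 (adjusted p = 0.013)) and in Pokkali at 3 h (-0.29 (adjusted p = 0.015)). The CESA6 call in Nonabokra was lost without the second unstressed array (-0.27, adjusted p = 0.058) or the first 6 h array (-0.24, adjusted p = 0.079), and that in Pokkali without the second unstressed array (-0.26, adjusted p = 0.060) or 3 h array 3 (-0.23, adjusted p = 0.087). The 6 h call of CESA5 in Nonabokra was lost without unstressed array 3 (-0.25, adjusted p = 0.053) or the first 6 h array (-0.20, adjusted p = 0.096).

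**Figure D4:**
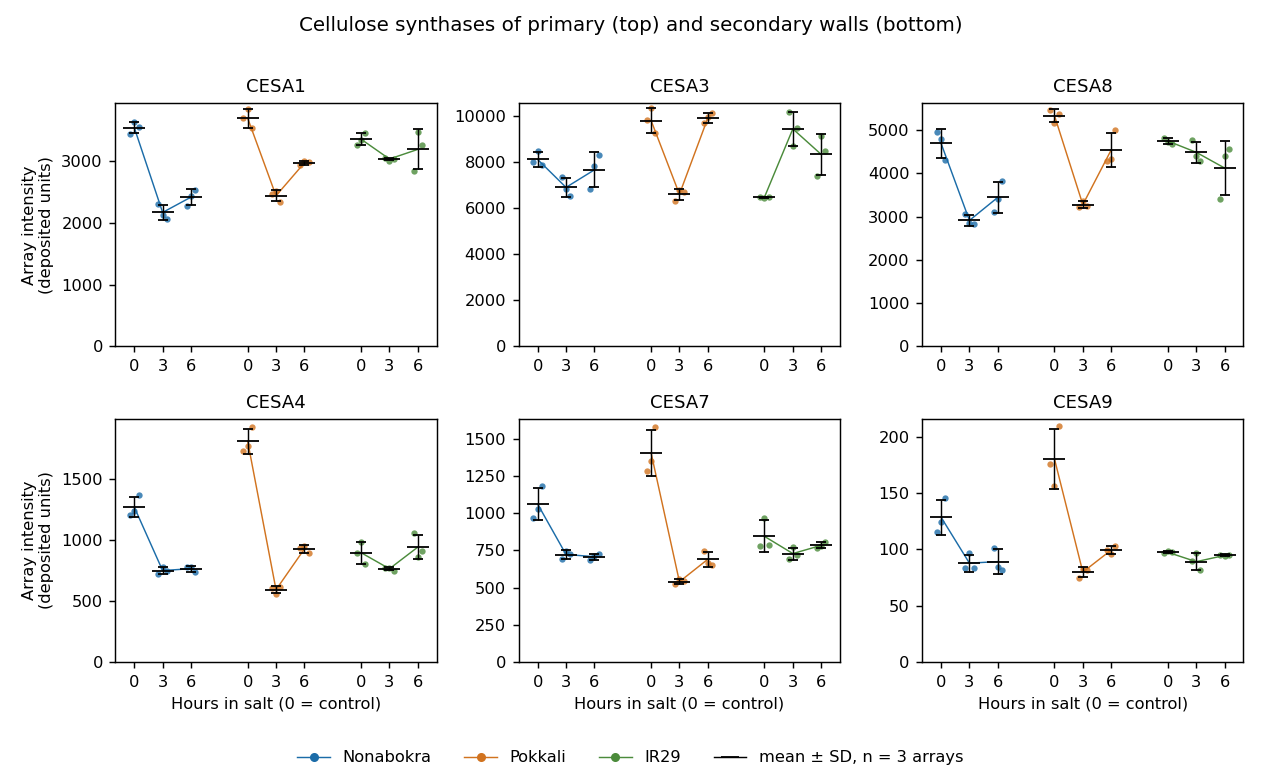
Array intensity (deposited units, axes from 0) of the primary wall synthases CESA1, CESA3 and CESA8 and the secondary wall synthases CESA4, CESA7 and CESA9 against hours in salt, with 0 for unstressed arrays, points for arrays and black bars for the mean ± SD of 3 arrays. In the lower panels Pokkali starts highest and drops at 3 h, for CESA4 from 1804 to 591, while IR29 goes from 894 to 762.

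The 20 synthase-like genes moved both ways: 6 higher and 5 lower in Nonabokra at 3 h, 5 and 2 in Pokkali and 7 and 4 in IR29, and 6 and 5, 7 and 4 and 7 and 4 at 6 h. All genes also moved both ways, with 27.4%, 24.9% and 32.7% higher and 30.2%, 28.2% and 31.4% lower at 3 h in the same order of cultivars. At 6 h the shares of all genes were 22.4%, 21.2% and 26.0% higher and 24.7%, 22.3% and 27% lower. The genes of mixed-linkage glucan went in opposite directions. CSLH1, whose barley counterpart makes this glucan, rose everywhere. In Nonabokra, CSLH1 read 563, 609 and 520.1 on the unstressed arrays, 1368, 1203 and 1332 after 3 h of salt and 899, 931 and 1134 after 6 h. In Pokkali, CSLH1 read 645, 685 and 694 on the unstressed arrays, 1289, 1295 and 1185 after 3 h of salt and 935, 957 and 999 after 6 h. In IR29, CSLH1 read 705, 656 and 710.2 on the unstressed arrays, 1218, 1370.1 and 1353 after 3 h of salt and 753, 1003 and 945 after 6 h. All salt arrays of CSLH1 lay above the unstressed arrays of their cultivar. The rises at 3 h were 1.18 ± 0.093 (adjusted p = 2.2e-09), 0.88 ± 0.093 (adjusted p = 2.1e-07) and 0.91 ± 0.093 (adjusted p = 1.5e-07) in Nonabokra, Pokkali and IR29, and those at 6 h 0.79, 0.50 and 0.37 (adjusted p = 0.0045).

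CSLF8 had the largest fall of any synthase. In Nonabokra, CSLF8 read 336, 326 and 316 on the unstressed arrays, 90.8, 95.3 and 99.9 after 3 h of salt and 111, 161 and 149 after 6 h. In Pokkali, CSLF8 read 171, 161 and 164 on the unstressed arrays, 42.4, 46.4 and 28.9 after 3 h of salt and 125, 129 and 132 after 6 h. In IR29, CSLF8 read 240.4, 194 and 210.2 on the unstressed arrays, 241, 237 and 246 after 3 h of salt and 164, 173 and 169.5 after 6 h. In Nonabokra and Pokkali the 3 h arrays lay below all others of the cultivar, and in IR29 they did not fall. The changes at 3 h were -1.62 ± 0.11 (adjusted p = 1.5e-10), -1.73 ± 0.11 (adjusted p = 7e-11) and 0.16 (adjusted p = 0.2), and at 6 h -1.14 ± 0.11 (adjusted p = 5e-08), -0.32 (adjusted p = 0.035) and -0.32 (adjusted p = 0.02). The 6 h call in IR29 was lost without its first unstressed array (-0.24, adjusted p = 0.11). CSLF6, the main synthase of mixed-linkage glucan in rice, stood at 0.022 (adjusted p = 0.89) at 3 h in Nonabokra, rose in Pokkali (0.32 (adjusted p = 0.0054)) and fell in both at 6 h, from 3064 ± 239.7 to 1917 ± 104 in Nonabokra (-0.67 ± 0.082 (adjusted p = 2.1e-06)) and from 2699 ± 227 to 2031 ± 81.6 in Pokkali (-0.41 ± 0.082 (adjusted p = 0.00085)). In IR29 CSLF6 passed at neither time (-0.0011 (adjusted p = 0.99) and -0.12 (adjusted p = 0.22)). CSLF2, next but 1 to CSLF8 in the genome, was dim and fell in IR29 by -0.42 and -0.24 from a mean of 12.5.

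In the CSLC family, which makes the glucan backbone of xyloglucan in Arabidopsis, CSLC9 and CSLC3 rose on different schedules. In Pokkali, CSLC9 read 143, 149 and 164 on the unstressed arrays, 459.7, 465 and 402 after 3 h of salt and 429.7, 421 and 429 after 6 h. In Pokkali the salt arrays of CSLC9 were far above the unstressed arrays at both times, by 1.45 ± 0.089 (adjusted p = 6.3e-11) and 1.40 ± 0.089 (adjusted p = 1.9e-10). Nonabokra rose from 162 ± 5.86 to 268 ± 38.5 at 3 h (0.67 ± 0.089 (adjusted p = 3.8e-06)) and stood at 0.20 (adjusted p = 0.15) at 6 h, and IR29 rose by 0.43 and 0.40. In Nonabokra, CSLC3 read 116, 124 and 126 on the unstressed arrays, 126, 133 and 130.4 after 3 h of salt and 282, 221 and 247 after 6 h. In Pokkali, CSLC3 read 135, 160.2 and 138 on the unstressed arrays, 188, 179 and 175 after 3 h of salt and 332, 350.4 and 387 after 6 h. In IR29, CSLC3 read 58.1, 65.2 and 62.0 on the unstressed arrays, 83.9, 72.8 and 78.5 after 3 h of salt and 138, 128 and 132 after 6 h. CSLC3 was highest at 6 h in each cultivar, with no overlap with the earlier arrays. At 6 h CSLC3 had risen by 0.94 ± 0.073 (adjusted p = 3.3e-09), 1.22 ± 0.073 (adjusted p = 7.7e-11) and 0.94 ± 0.073 (adjusted p = 5.3e-09), and at 3 h it stood at 0.077 (adjusted p = 0.64), 0.30 and 0.28, the last 2 passing. CSLC2 fell at 6 h in Nonabokra (-0.57 ± 0.081 (adjusted p = 1.4e-05)) and Pokkali (-0.42 (adjusted p = 0.00049)). CSLC7 fell in Nonabokra (-0.38 (adjusted p = 1.6e-05) at 3 h) and IR29 (-0.22 (adjusted p = 0.0031)) and did not pass in Pokkali, and CSLC1 passed once, at 6 h in Nonabokra (-0.39 (adjusted p = 7.9e-05)).

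The CSLA genes, mannan synthases, differed among themselves. In Nonabokra, CSLA5 read 397, 387 and 418 on the unstressed arrays, 1202, 695 and 731 after 3 h of salt and 325, 354 and 343 after 6 h. CSLA5 peaked in the 3 h arrays of Nonabokra (1.05 ± 0.14 (adjusted p = 2.7e-06)), fell in Pokkali at 6 h from 598 ± 31.7 to 387 ± 18.7 (-0.61 (adjusted p = 0.0022)), and stood at -0.19 (adjusted p = 0.23) and 0.024 (adjusted p = 0.9) in IR29. CSLA9 rose in IR29 at both times (0.56 ± 0.091 (adjusted p = 5.3e-05) and 0.47 (adjusted p = 0.00057)) and in Pokkali at 6 h (0.39), and fell in Nonabokra at 3 h (-0.36). CSLA7 rose in Nonabokra (0.39 and 0.43) and passed in no other cultivar. CSLA1, a gene that the annotation also lists under the synonym CSLA9, fell in Nonabokra at 3 h (-0.37 (adjusted p = 0.0018)) and in Pokkali at 3 h (-0.24 (adjusted p = 0.044)), where the call was lost without any 1 of the 6 arrays compared (changes from -0.27 to -0.21) and with the replicate number as a block (adjusted p = 0.054). CSLE1 rose at 6 h in all 3 cultivars, by 0.84 ± 0.082 (adjusted p = 9.5e-08) in Nonabokra, 0.50 in Pokkali and 0.44 (adjusted p = 0.0004) in IR29, and at 3 h in Nonabokra (0.61) and Pokkali (0.26). CSLE2 rose by 0.64 ± 0.074 (adjusted p = 8.9e-07) after 3 h in IR29, and its 6 h rises were 0.24, 0.28 and 0.36 in Nonabokra, Pokkali and IR29, but its probe sets differed. One with a mean of 84.1 rose by 1.01, 0.85 and 1.08 at 3 h in the same order, and at 6 h in IR29 neither it (0.22, adjusted p = 0.19) nor the other (0.070, adjusted p = 0.65) passed. Of the CSLD genes only CSLD2 was above the dim level, and it rose in Pokkali at 6 h (0.34) and in IR29 at both times (0.17 and 0.26). CSLD5 was dim and fell in IR29 by -0.27 (adjusted p = 0.004) and -0.44 (adjusted p = 0.00011) from a mean of 25.5.

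Between 3 h and 6 h of salt, 27 members changed in Nonabokra (17 higher and 10 lower at 6 h, 46.6% against 44.7% of all genes), 31 in Pokkali (20 and 11, 53.4% against 44.0%) and 23 in IR29 (13 and 10, 39.7% against 30.8%). The expansins had 10 and 4, 9 and 8 and 9 and 6 in these 3 cultivars, and the synthases 7 and 6, 11 and 3 and 4 and 4, with 10 and 5 for the synthases of Pokkali after quantile normalization. The largest changes in Nonabokra were those of EXPA2 (1.38 ± 0.086 (adjusted p = 2.1e-10)), CSLA5 (-1.28 ± 0.14 (adjusted p = 4.4e-07)) and EXPA1 (-1.08 ± 0.09 (adjusted p = 1.3e-08)). In Pokkali they were CSLF8 (1.40 ± 0.11 (adjusted p = 4.6e-09)), EXPB7 (-1.15 ± 0.055 (adjusted p = 5.1e-12)) and EXLA2 (1.12 ± 0.19 (adjusted p = 0.00012)). In IR29 they were EXPB7 (-0.83 ± 0.055 (adjusted p = 1.4e-09)), EXLA2 (0.69 ± 0.19 (adjusted p = 0.014)) and EXPA3 (-0.66 ± 0.11 (adjusted p = 0.00022)), of which EXLA2 was no longer called without the first 3 h array (0.54, adjusted p = 0.094) or the second 6 h array (0.54, adjusted p = 0.079). With the compared groups alone neither EXLA2 (adjusted p = 0.21) nor EXPA3 (adjusted p = 0.056) passed there. Among the cellulose synthases 6 of 9 were higher at 6 h than at 3 h in Pokkali, 1 in Nonabokra and 1 in IR29, and none was lower, beside 23.7%, 21.9% and 14.1% of all genes higher and 20.4% lower in Pokkali. Nonabokra had 4 higher without its first 6 h array and 2 without its first 3 h array, and CESA5 was called lower in Pokkali with a replicate block. CESA4 came back by 0.63 ± 0.071 (adjusted p = 1.1e-06) in Pokkali and stood at 0.029 (adjusted p = 1) in Nonabokra.

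The cultivars already differed before salt, and Nonabokra had the lower expansin levels. In unstressed seedlings 39 members differed between Nonabokra and IR29 (67.2% against 51.7% of all genes), 39 between Pokkali and IR29 (67.2% against 61.8%) and 32 between Nonabokra and Pokkali (55.2% against 39.7%). The expansins were lower in Nonabokra than in IR29 for 19 of 29 and higher for 4, and lower than in Pokkali for 14 and higher for 4 (all genes 25.0% and 21.6% lower), with median differences of -0.27 and -0.24, beside medians of all genes of 0.0083 and -0.0016. Against IR29 the split became 15 lower and 5 higher with median centring, and 16 and 3 with quantile normalization. Against Pokkali it stayed at 14 and 4 with either. Pokkali had 10 expansins higher and 9 lower than IR29, or 11 and 6 with median centring. For the synthases the order was different: 11 were higher and 5 lower in Nonabokra than in IR29, 14 higher and 6 lower in Pokkali than in IR29, and 4 higher and 10 lower in Nonabokra than in Pokkali. Of all genes 26.7%, 33.9% and 18.1% were higher in these 3 comparisons, and 27.9% were lower in Pokkali than in IR29. Every probe set was compared across cultivars that can differ in sequence under the probes, and what part such differences had was not tested.

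EXPB2 showed the largest unstressed difference between Nonabokra and IR29, -2.15 ± 0.04 (adjusted p = 6e-19), followed by EXPA2 (-1.08 ± 0.086 (adjusted p = 5.6e-09)) and EXPA3 (-1.04 ± 0.11 (adjusted p = 3.9e-07)). The unstressed IR29 arrays of EXPA2 read 1236, 1166 and 1253, and for none of the 3 genes did the unstressed arrays of these cultivars overlap. Between Pokkali and IR29 the largest were EXPB18 (-1.67 ± 0.10 (adjusted p = 2.3e-11)), EXPA1 (1.45 ± 0.09 (adjusted p = 6.4e-11)) and EXPA3 (1.36 ± 0.11 (adjusted p = 5.2e-09)), and between Nonabokra and Pokkali EXPA3 (-2.40 ± 0.11 (adjusted p = 1.2e-12)), EXPB2 (-1.87 ± 0.04 (adjusted p = 4.3e-18)) and EXPA1 (-1.75 ± 0.09 (adjusted p = 5.7e-12)). The unstressed EXPA2 means were 571 ± 50.6 in Nonabokra and 1218 ± 46.0 in IR29. All 3 secondary wall synthases were ordered Pokkali, Nonabokra, IR29. CESA4 was higher in Pokkali than in IR29 by 1.004 ± 0.071 (adjusted p = 5.4e-10) and in Nonabokra than in IR29 by 0.50 ± 0.071 (adjusted p = 1.8e-05), and lower in Nonabokra than in Pokkali by -0.51 ± 0.071 (adjusted p = 1.4e-05). CESA7 differed by 0.73, 0.33 and -0.40 and CESA9 by 0.78, 0.34 and -0.44 in the same 3 comparisons, all passing. CSLC3 was also lower in IR29, at 61.7 ± 3.57 against 122 ± 5.07 and 144 ± 13.7.

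Whether the cultivars differed in their response was tested as the difference of their salt changes. Between Nonabokra and IR29 the response differed for 26 members (44.8%, all genes 37.4%) at 3 h and for 26 members (44.8%, all genes 31.1%) at 6 h. Between Pokkali and IR29 it differed for 33 members (56.9%, all genes 44.8%) and 22 members (37.9%, all genes 26.9%), and between the tolerant cultivars for 21 members (36.2%, all genes 26.7%) and 17 members (29.3%, all genes 28.4%). The expansins differed in both directions in each of the 6 tests, for example with 10 more positive and 8 more negative in Pokkali than in IR29 at 3 h, which became 7 and 9 with median centring. The cellulose synthases differed one way: against IR29 none of 9 had a more positive response in Nonabokra or Pokkali, while 6 and 5 were more negative in Nonabokra and 6 and 4 in Pokkali at 3 h and 6 h. Of all genes 22.0% and 19.0% were more negative in Nonabokra and 25.6% and 15.1% in Pokkali, and the medians of all genes were -0.025, -0.0075, -0.036 and -0.00098. With the compared groups alone 2 of 9 were more negative in Nonabokra at 6 h.

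CESA4, CESA7 and CESA9 fell further than in IR29 in both tolerant cultivars at both times, from higher unstressed levels. For CESA4 the differences from IR29 were -1.36 ± 0.10 (adjusted p = 3.5e-09) and -1.02 ± 0.10 (adjusted p = 2.8e-07) in Pokkali and -0.53 ± 0.10 (adjusted p = 0.00065) and -0.79 ± 0.10 (adjusted p = 8.6e-06) in Nonabokra. CESA7 had -1.15 and -0.91 in Pokkali and -0.34 (adjusted p = 0.046) and -0.47 in Nonabokra, and CESA9 had -0.91 and -0.72 and -0.36 (adjusted p = 0.042) and -0.42 (adjusted p = 0.025). The differences of CESA7 and CESA9 between Nonabokra and IR29 were less firm. At 3 h the call of CESA7 was lost when 9 of the 12 arrays compared were left out in turn (-0.44 to -0.26, adjusted p 0.007 to 0.12) and that of CESA9 for 8 (-0.43 to -0.28, adjusted p 0.025 to 0.11). At 6 h that of CESA9 was lost for 4 (-0.51 to -0.34, adjusted p 0.0076 to 0.077), and with the compared groups alone none of these 4 calls was kept. The replicate block ended the 3 h call of CESA9 (adjusted p = 0.051). At 3 h all 3 also fell less in Nonabokra than in Pokkali, by 0.84, 0.81 and 0.55 (adjusted p = 0.0043). That call of CESA9 was lost with the compared groups alone (adjusted p = 0.054). Response and unstressed differences rest on the same unstressed arrays. For Pokkali against IR29 the unstressed differences of CESA4, CESA7 and CESA9 were 1.004, 0.73 and 0.78, beside 6 h response differences of -1.02, -0.91 and -0.72. How far these response differences go back to the starting level was not tested. CSLF8 had the largest differences at 3 h, -1.78 ± 0.15 (adjusted p = 2.7e-08) for Nonabokra and -1.89 ± 0.15 (adjusted p = 1.1e-08) for Pokkali against IR29, since it fell in both and did not pass in IR29.

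Among the expansins EXPB2 separated Nonabokra from IR29, by 1.72 ± 0.057 (adjusted p = 2.2e-14) at 3 h and 2.25 ± 0.057 (adjusted p = 4.4e-16) at 6 h, and from Pokkali at 6 h by 1.44 ± 0.057 (adjusted p = 5e-13). EXPA3 and EXPA8 separated both tolerant cultivars from IR29 at 6 h. The difference for EXPA3 was 2.14 ± 0.16 (adjusted p = 4.3e-09) in Nonabokra and 1.96 ± 0.16 (adjusted p = 1.7e-08) in Pokkali, and for EXPA8 1.27 ± 0.13 (adjusted p = 6.1e-07) and 1.42 ± 0.13 (adjusted p = 1.4e-07). Between the tolerant cultivars these 2 genes did not pass at 6 h (0.18 (adjusted p = 0.65) and -0.14 (adjusted p = 0.67)). Pokkali stood apart for EXPB18, with 1.72 ± 0.14 (adjusted p = 1e-08) and 1.69 ± 0.14 (adjusted p = 1.9e-08) against IR29, and -1.56 ± 0.14 (adjusted p = 6.2e-08) and -1.99 ± 0.14 (adjusted p = 2e-09) for Nonabokra against Pokkali. It also stood apart for EXPA5 at 3 h (-1.47 ± 0.11 (adjusted p = 6.5e-09) against IR29, and 1.53 ± 0.11 (adjusted p = 5e-09) for Nonabokra against Pokkali) and for EXPA1 at 3 h (1.65 ± 0.13 (adjusted p = 8.9e-09) for Nonabokra against Pokkali). EXPB7 kept more of its rise at 6 h in Nonabokra than in Pokkali, by 1.29 ± 0.077 (adjusted p = 2.5e-10), and CSLA5 rose in Nonabokra at 3 h by 1.25 ± 0.19 (adjusted p = 6.8e-05) more than in IR29. No response difference was found for EXLA1 at 3 h (between -0.018 and 0.056, none passing).

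**Figure D5:**
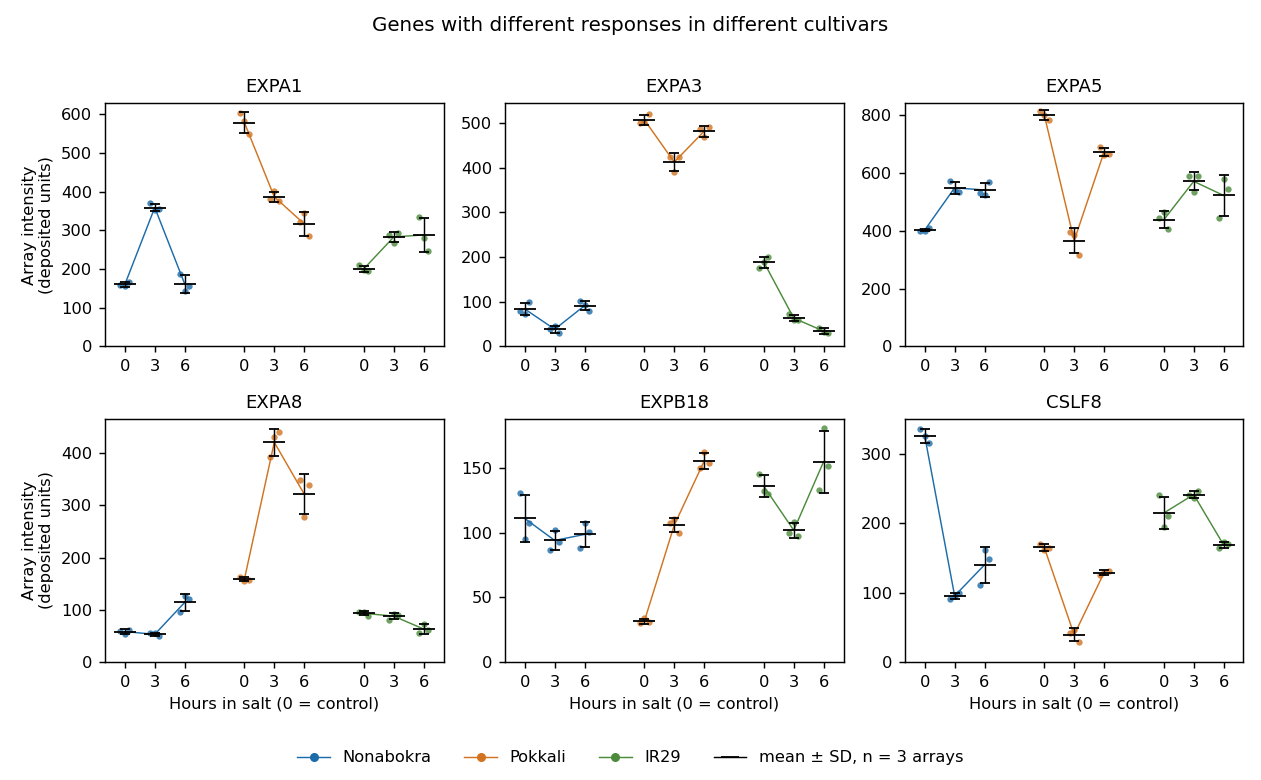
Array intensity (deposited units, axes from 0) of 6 members whose salt response differed between cultivars, against hours in salt, with 0 for unstressed arrays, points for arrays and black bars for the mean ± SD of 3 arrays. EXPB18 starts in Pokkali at 31.6 and ends at 155, EXPA3 in IR29 goes from 188 to 34.2, and CSLF8 at 3 h drops in Nonabokra and Pokkali and not in IR29.

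Other wall genes were read beside the members. The genes named BC for brittle culm in rice, most of them COBRA-like, had 2 of 5 higher and 2 of 5 lower in every salt comparison except IR29 at 6 h, where 1 rose and none fell. Between 21.2% and 32.7% of all genes were higher and between 22.3% and 31.4% lower in these comparisons. Group means of BC1L2 reached at most 98.4 and those of BC1L6 at most 106. BC1, required for the cellulose of secondary walls, went from 658 ± 14.9 to 149.6 ± 9.62 and 308 ± 38.5 in Pokkali, falls of -2.03 ± 0.13 (adjusted p = 1.3e-10) and -1.06. BC1 fell in Nonabokra by -0.96 and -0.80 and in IR29 at 3 h by -0.46 (adjusted p = 0.0058), with 0.15 (adjusted p = 0.36) at 6 h, the same order of cultivars as CESA4 and CESA7. BC1L9, a relative of BC1, rose in all 6 comparisons and most in IR29, from 224 ± 5.43 to 2092 ± 55.3 at 3 h (3.13 ± 0.071 (adjusted p = 3.1e-17)) and 1392 ± 32.2 at 6 h. Of 6 sucrose synthases, which supply the UDP-glucose that cellulose synthases use, SUS1 fell in all 6 comparisons (between -1.25 and -0.51) and SUS4 rose in all 6 (between 0.57 and 1.10). Of 11 endoglucanases (GLU) 7, 8 and 8 fell and 1 each rose at 3 h in Nonabokra, Pokkali and IR29, and 2, 5 and 3 fell and 3, 1 and 0 rose at 6 h, beside 30.2%, 28.2% and 31.4% of all genes lower at 3 h, then 24.7%, 22.3% and 27% lower after 6 h. GLU1, tied to cell elongation in rice, rose in Pokkali (1.01 and 1.22), and GLU6 fell in IR29 (-1.79 at both times). Some GLU genes were dim: group means of GLU6 reached at most 96.4, those of GLU5 86.8 and those of GLU14 50.7. XTH8, a xyloglucan-modifying enzyme, fell in 5 of the 6 comparisons and stood at -0.081 (adjusted p = 0.57) in Pokkali at 3 h.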

How the data were processed

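The deposited values are linear intensities per probe set made by the authors; the submitters' processing notes name GCOS, and how probes were summarised and arrays normalised is not given in the sources used here. Per the labels, RNA of whole seedlings was labelled with biotin by the array maker's 3' protocol and hybridised to rice arrays, with 3 biological replicates in each of 9 groups. Nothing else says whether replicates came from separate cultures, so p-values measure the spread between these arrays.

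No further scaling was applied. Of 57381 probe sets, 187 control probe sets were left out, and limma 3.58.1 in R 4.3.3 fitted log2(intensity + 16) of the other 57194 with 1 mean per group over all 27 arrays, moderated with 1 common prior, with Benjamini-Hochberg adjustment per comparison and a threshold of 0.05. Response differences are interaction contrasts. Of the tested probe sets 22436 match 1 gene, 95 several and 34663 none, and 17905 genes are represented by their brightest probe set. Gene names come from the platform annotation and RefSeq (ASM3414082v1).

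Named with values are all CESA genes, the 3 largest rises and 3 largest falls among expansins and among synthase-like genes in each salt comparison that passed with no overlap of arrays, the 3 largest passing differences in each other comparison (for response differences of at least 1), and the 3 brightest genes of each family. Other genes were named after their values were seen. The members and lists were chosen with earlier results of these data known. On simulated data for the Nonabokra 6 h comparison over 57194 probe sets, 70% of changes of 0.5 and 94% of changes of 1 on the log2 scale were recovered, with 5 false calls. The changes were placed only in probe sets above an intensity of 100 in unstressed Nonabokra, 100 of each size. In the data far more passed, 5848 higher and 6956 lower. The simulated noise was independent between arrays, so recovery for dim genes or with correlated arrays was not tested. Replicate numbers are shared by the groups, but in only 2 of 36 pairs of groups did all same-numbered residuals correlate above 0.1: unstressed Nonabokra and Pokkali (0.47, 0.16 and 0.19), and Nonabokra and IR29 at 6 h (0.72, 0.42 and 0.40). That comes from the values, since no label tells what the number stands for. Alternatives were quantile normalization, pseudocounts of 1 and 64, median centring, removal of the dimmest 40%, a trended prior, a replicate block, a threshold of 0.01, averaging the probe sets of a gene, a fit to the compared groups alone, and leaving out arrays.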

Additional observations from a re-analysis of the deposited data

Results flagged for a closer look

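Salt responses that differed between 2 cultivars by at least 1 on the log2 scale in the interaction test are given here as the difference of the changes, the 3 largest in each comparison. Against IR29 at 3 h, Nonabokra differed for CSLF8 (-1.78), EXPB2 (1.72) and CSLA5 (1.25), and Pokkali for CSLF8 (-1.89), EXPB18 (1.72) and EXPA5 (-1.47). Against IR29 at 6 h, Nonabokra differed for EXPB2 (2.25), EXPA3 (2.14) and EXPA8 (1.27), and Pokkali for EXPA3 (1.96), EXPB18 (1.69) and EXPA8 (1.42). Nonabokra differed from Pokkali at 3 h for EXPA1 (1.65), EXPB18 (-1.56) and EXPA5 (1.53), and at 6 h for EXPB18 (-1.99), EXPB2 (1.44) and EXPB7 (1.29). Each passed after adjustment over all probe sets. Each of the 9 genes also differed between at least 1 pair of unstressed cultivars, and how far a response difference goes back to the starting level was not tested.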

How the results depend on the processing

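Most counts of passing members stayed within 1.5 times under each alternative. Exceptions were the fit to the compared groups alone, with 13 members in IR29 at 6 h in place of 31, 17 between 6 h and 3 h in Nonabokra in place of 27, 7 between 6 h and 3 h in IR29 in place of 23 and 16 for the Nonabokra and IR29 response difference at 6 h in place of 26 (fewer arrays estimate the spread), and the threshold of 0.01, with 14 for that last difference. Leaving out 1 array at a time gave 31 to 34 and 27 to 29 in Nonabokra at 3 h and 6 h, 30 to 34 and 28 to 32 in Pokkali and 32 to 37 and 27 to 33 in IR29. It gave 25 to 30, 23 to 27 and 18 to 24 for 6 h against 3 h in Nonabokra, Pokkali and IR29. Unstressed, it gave 36 to 39 for Nonabokra and IR29, 35 to 39 for Pokkali and IR29 and 27 to 32 for Nonabokra and Pokkali. For response differences at 3 h and 6 h it gave 21 to 27 and 18 to 29 for Nonabokra and IR29, 30 to 34 and 19 to 23 for Pokkali and IR29, and 19 to 22 and 15 to 20 for Nonabokra and Pokkali. With all arrays kept, the counts in salt at 3 h in Pokkali and in IR29 lay above their ranges. So did the count for 6 h against 3 h in Pokkali.

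With the replicate number as a block the counts of passing members in salt were 33 and 29 in Nonabokra, 35 and 32 in Pokkali and 38 and 30 in IR29 at 3 h and 6 h. The block thus moved none of these counts by over 1.5 times. One block shared by all groups does not model a correlation confined to 2 pairs of groups. Of 158 named results the block ended 1 call (CSLA1 in Pokkali at 3 h) and added 1 (CESA5 there, adjusted p = 0.038).

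Of the 158 named results 136 passed, none reversed, 19 lost their call under at least 1 alternative and 8 gained one. Of the 19 lost calls 11 are of CESA genes, and the changes were 0.14 to 0.69 in size. With the compared groups alone 14 were lost: CESA5 (adjusted p = 0.13), CESA6 (0.077), CESA8 (0.051) and CESA9 (0.074) at 6 h in Nonabokra, CSLF6 (0.12) at 3 h in Pokkali, CESA4 (0.082), CESA7 (0.15) and CSLD5 (0.0504) at 3 h in IR29, CESA3 (0.067), CSLE1 (0.073), CSLF2 (0.19) and CSLF8 (0.083) at 6 h in IR29, and EXLA2 (0.21) and EXPA3 (0.056) between 6 h and 3 h in IR29. With median centring the calls lost were those of CESA1 (0.089) and CESA7 (0.081) at 3 h in IR29. CESA8 gained a call at 6 h without 6 h array 3 in Pokkali (-0.30, adjusted p = 0.032), and without 6 h array 2 (-0.27, 0.049) or 3 (-0.29, 0.023) in IR29. Whether dim genes near the array median changed less than the 16 added can show is not known.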

Other observations

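Some dim members differed between cultivars as much as brighter ones. EXPA29 read 49.6 ± 6.21 (mean ± SD, n = 3) in unstressed Pokkali against 19.3 ± 1.98 in Nonabokra and 14.4 ± 4.16 in IR29, a difference of 1.11 ± 0.082 (adjusted p = 9.3e-10) from IR29 and -0.89 ± 0.082 (adjusted p = 4.4e-08) for Nonabokra against Pokkali. EXPB8 was also highest in Pokkali, at 36.4 ± 5.24 unstressed and 55.5 ± 8.44 at 3 h. CSLD5 and CSLF2 were highest in unstressed IR29, at 25.5 ± 1.46 and 12.5 ± 1.55, against 10.021 ± 1.17 and 5.48 ± 0.30 in Pokkali. The array medians lay between 7.09 and 7.77, near the Pokkali means of CSLD5 and CSLF2 and below the other means given here, and the added 16 shrinks log2 differences at these levels.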
